A study of Drosophila melanogaster with 4 samples.

Results

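The peaks described here mark where GFP-tagged Ribbon (Rib) was found in Drosophila melanogaster embryos that expressed it through fkh-Gal4. All 4196 peaks of that immunoprecipitation were taken, of 5103 peaks in the 2 lists of the series. The account covers the 3031 of them on chromosomes 2, 3, 4 and X outside the histone and 5S rRNA gene arrays. The embryos had the genotype fkh-GAL4::UAS-rib-GFP and were at stages 11 to 16, from an 8 h collection aged for 11 h and sorted by machine, with fixation in 1.8% formaldehyde. An anti-GFP antibody pulled down the tagged protein, and 50 bp reads were sequenced. The series holds 4 samples in all, an immunoprecipitation and an input for each of 2 drivers, and the fkh-Gal4 input enters here as a label only.

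Rib works in the nucleus. It combines a BTB domain, through which such proteins pair with each other, with a DNA-binding domain of the Pipsqueak type. It acts in the embryo on the shape and length of epithelial tubes, among them the salivary gland and the trachea. The driver takes its pattern from forkhead (fkh), a gene that encodes a transcription factor of the salivary gland and also acts in parts of the gut. The tagged protein was made from a transgene wherever the driver was active, so its level is set by the driver and not by the rib gene itself. The labels name whole embryos and no dissected tissue, so the peaks do not say in which cells the protein was bound. The transgene carries rib sequence and the driver carries fkh sequence, and reads from these copies cannot be told from reads of the genes themselves.

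The list merges 3 collections, so no value below has a replicate error. It gives a start and an end for each peak, with no height or score, and its read depth is unknown. The width of the 3031 peaks had a median of 123 bp (with quartiles of 89 and 192 bp and a range of 70 to 1496 bp), and together they covered 505 kb of the dm6 genome. They were spread over all arms, at 23.8 peaks per Mb on 2L, 24.0 on 2R, 23.2 on 3L, 20.9 on 3R, 27.5 on chromosome 4 and 21.6 on X. Intervals in brackets are exact 95% Clopper-Pearson intervals, which take in the error of counting alone.

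Most genes had no peak, and a few long ones had many. A gene is counted as met where a peak touches its body or the 1 kb on either side. Of 13811 protein-coding genes, 1497 were met (10.8%, 10.3 to 11.4). A single peak met 1083 genes (7.84%), at least 2 peaks met 414 (3.00%) and at least 5 peaks met 74 (0.536%). Gene bodies held the centres of 1677 of the 3031 peaks (55.3%, 53.5 to 57.1), and 969 peaks met no protein-coding gene even with the 1 kb added.

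The number of peaks followed the length of the gene. The 74 genes with 5 or more peaks had a median length of 67.9 kb, against 2.18 kb over all protein-coding genes, and the shortest of them was Agpat2, an acyltransferase gene of phospholipid synthesis, with 14.3 kb. Of genes over 100 kb, 70 of 83 were met (84.3%, 74.7 to 91.4), against 88 of 2591 genes under 1 kb (3.40%). Per Mb of gene body plus 1 kb the same genes over 100 kb had 27.6 peaks and those under 1 kb had 13.4, which is a smaller contrast than that of the shares met. In the genes of 10 to 20 kb, of 20 to 50 kb and of 50 to 100 kb the density was 23.9, 23.2 and 24.6 peaks per Mb.

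**Figure D1:**
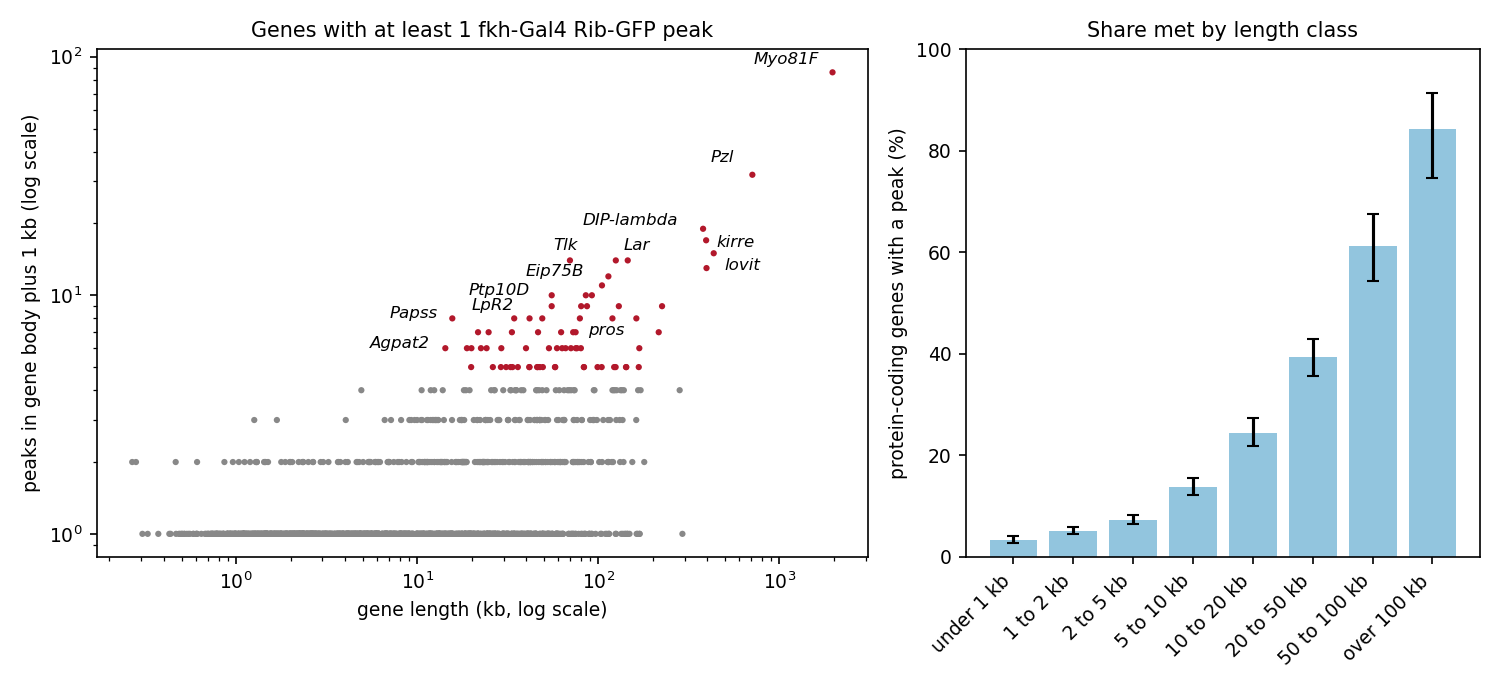
Left, peaks in body plus 1 kb against gene length in kb, both on log scales, with a point for each protein-coding gene met and genes with 5 or more peaks in red. Right, the share of all protein-coding genes met in each length class, with exact 95% intervals: Myo81F stands first with 86 peaks, and the share is 84.3% for the genes over 100 kb.

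The highest counts belonged to giant genes toward the centromere ends of the arms. Myo81F (chr3R:567076-2532932), which encodes a myosin heavy chain, had 86 peaks over 1970 kb. They formed 57 groups of neighbours at most 5 kb apart, and no group had more than 4 peaks. Pzl (chr3R:2554162-3263582), the Piezo-like channel gene next to it, had 32 peaks in 20 groups. DIP-lambda (chr2R:326768-705848), an immunoglobulin-domain protein of neuronal contacts, had 19 peaks in 13 groups. The gene lovit (chr3L:25236940-25670980), which encodes a transporter of photoreceptor synapses, had 15 in 8 groups. Snap25 (chr3L:24074180-24299205), a SNARE protein of vesicle fusion, had 9 in 6 groups. In these genes the peaks were thus scattered.

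Peak density was higher toward the centromeres as a whole. Peaks in the 3 Mb nearest the centromere of the 5 major arms numbered 537, or 35.8 per Mb, against 2457, or 20.9 per Mb, in the rest of those arms. The 3 Mb span was chosen after the values were seen, and it leaves out Snap25. Outside the genes with 5 or more peaks and the 1 kb beside them, the 3 Mb held 347 peaks, or 32.6 per Mb, against 18 per Mb in the rest. On 3R the densities with these genes in were 40.7 and 18.8 per Mb, and most of the 3 Mb there is Myo81F and Pzl. These 2 genes had 43.7 and 45 peaks per Mb of body plus 1 kb. On X the difference was least, with 25.7 against 21.0 per Mb.

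Among genes away from the centromeres, the highest counts lay in kirre (chrX:2740384-3134532), whose immunoglobulin-domain product acts in myoblast fusion. It had 17 peaks over 394 kb, and 14 of them fell in stretches around 84 to 92 kb and 331 to 333 kb from its end of lower coordinate. Tlk (chrX:3720007-3789770), the Tousled-like kinase of chromatin assembly, had 14 peaks over 69.8 kb, or 195 per Mb. One of these, chrX:3727996-3729491, was the widest of all 3031 peaks, at 1496 bp. The other 13 peaks in Tlk had widths of 80 to 289 bp. Lar (chr2L:19586623-19732069), a receptor tyrosine phosphatase of axon guidance, had 14 peaks in 5 groups, 8 of them in a stretch of 10695 bp. CG46244 lies within Lar and met the same 14 peaks.

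Further genes with many peaks encode signalling and junction proteins. Ptp10D (chrX:11622015-11677338), a receptor tyrosine phosphatase that also acts in tracheal tubes, had 10 peaks, 9 of them in a stretch of 8033 bp. The gene pyd (chr3R:8827068-8931896), which encodes the fly's ZO-1 junction protein Polychaetoid, had 11 peaks in 4 groups, 6 of them in a stretch of 11284 bp. InR (chr3R:21570248-21619321), the insulin receptor, had 8 peaks, 7 of them in 1 group. LpR2 (chr3R:25698727-25740465), a lipophorin receptor, had 8 peaks, all in 1 group of 9046 bp. AstA-R1 (chrX:3574536-3666724), an allatostatin receptor, had 10 in 3 groups, and Prosap (chr2R:14060456-14140902), a Shank-type synaptic scaffold, had 9 in 4 groups. The gene pros (chr3R:11328480-11407627), which encodes a homeodomain factor of neural precursors and their daughters, had 8 peaks with widths of 74 to 309 bp, in 4 groups.

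The remaining genes of the 25 were Eip75B, which is described with the ecdysone genes, CG17684, CG42747, CG34355, CG42238, CG41520, CG43163, CG43867 and Papss, with 8 to 13 peaks each. CG42238 had its 9 peaks in a single stretch of 2992 bp. The 25 genes together held 356 peaks (11.7%, 10.6 to 12.9) over 5.86 Mb of gene bodies, and the 74 genes with 5 or more peaks held 624 (20.6%, 19.2 to 22.1). In 14 of the 74 genes all peaks lay in 1 group, and in 44 at least as many peaks lay in the largest group as outside it. Counting each group once left 13 genes with 5 or more, against 74 with peaks counted singly.

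Papss (chr3L:19845293-19860925) had the most peaks per length among the 25. It encodes the synthetase of the sulfate donor PAPS, which salivary glands use to sulfate secreted sugars. All 8 peaks lay within 9057 bp of its 15.6 kb body, at 3.4, 3.7, 4.9, 6.0, 6.6, 7.1, 8.8 and 12.1 kb from the end of lower coordinate. The last peak was 534 bp wide and the first 205 bp, and the third was 70 bp. This is 454 peaks per Mb of body plus 1 kb, against 22.6 per Mb over the major arms. Papss was picked for its many peaks, so a density above that of the arms follows from the choice. All 8 peaks form a group of a span that recurs on all major arms, described below, and without such groups Papss had no peak.

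Among all genes with 3 or more peaks, the density per length was highest in short genes. The gene hng2 (chr3R:8806322-8807581), 1.26 kb long, had 3 peaks of 74 to 86 bp in the 1 kb on its 2 sides and none with its centre in the body. Rh5 (chr2L:12008153-12009832), which encodes a rhodopsin, had 3 peaks, likewise with none centred in its body. They belong to a group of 10 peaks over 9393 bp. CG9331, Ppa, FoxK, ken, Obp73a, Agpat2 and Acox3 followed with 3 to 7 peaks each. Ppa encodes an F-box protein, FoxK a forkhead factor, ken a BTB zinc-finger factor, Obp73a an odorant-binding protein and Acox3 an acyl-CoA oxidase.

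Length did not always bring peaks. The 10 longest genes with no peak in body plus 1 kb were CG40470, Sh, bru1, fru, Sema1a, shep, mtgo, CG42750, Pde9 and CG32373, with lengths of 147 kb for the first and 109 kb for the last. Sh encodes a potassium channel, Sema1a a guidance ligand and fru a BTB factor of sexual behaviour. A gene with no peak is not shown to be unbound, since the depth of the list is unknown.

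The genes of the ecdysone response, the steroid pulse that times moults and metamorphosis, show both scattered and tight sets. Of 24 nuclear receptor and ecdysone genes 7 were met (29.2%), against 8.05 at the shares met of all genes of the same length classes. These 7 genes had 38 distinct peaks, and 4 of the 24 had 5 or more, against 74 of all 13811 protein-coding genes (0.536%). By length, 23 of 705 genes of 20 to 50 kb, 24 of 224 of 50 to 100 kb and 22 of 83 over 100 kb had as many. With each group of peaks counted once, Eip75B alone of the 4 kept 5. Eip75B (chr3L:17950953-18064696), an ecdysone-induced nuclear receptor, had 12 peaks in 5 groups. They lay at 20.2, 20.4, 21.6, 37.4, 39.3, 48.6, 51.4, 65.8, 97.0, 98.3, 102.3 and 105.5 kb from the end of lower coordinate. The first was chr3L:17971137-17971257, with 121 bp, and the widest chr3L:18056237-18056716, with 480 bp. Hr3 (chr2R:10203995-10237348), a nuclear receptor downstream of the pulse, had 7 peaks in 3 groups. CG46321 and CG12912 overlap it and met 6 peaks each, so that these counts share peaks. Hr4 (chrX:1941940-2007956) had 6 peaks of 80 to 163 bp in 4 groups. Eip78C (chr3L:21226609-21266503) had 6 peaks of 70 to 107 bp, all in 1 group of 7084 bp. EcR, the ecdysone receptor itself, had 3 peaks, ftz-f1 had 3 and Eip74EF had 1. The other 17 genes, among them usp, which encodes the partner of EcR, had none.

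**Figure D2:**
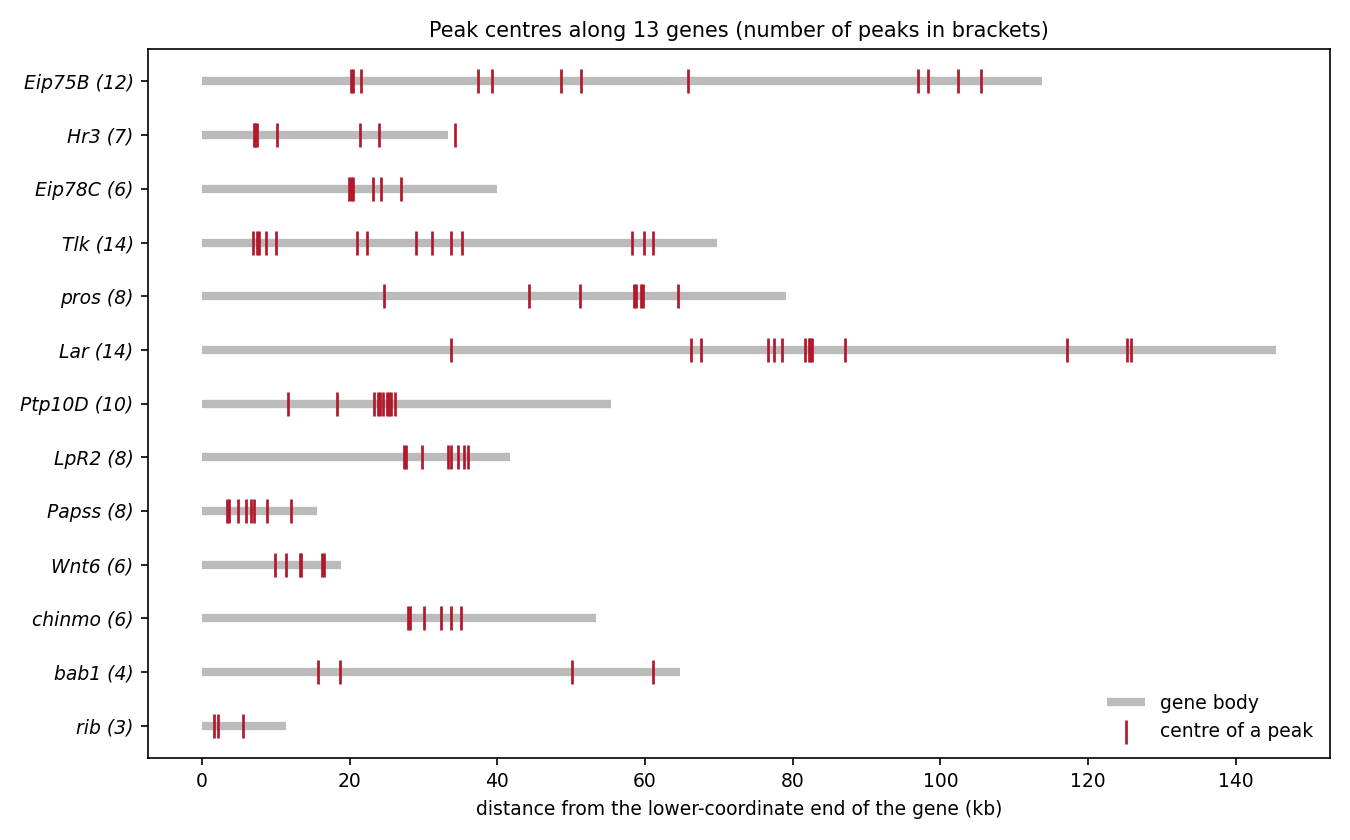
Centres of the peaks (red ticks) along 13 genes (grey bars), by distance in kb from the gene's end of lower coordinate, with the number of peaks in brackets. Papss, LpR2, Eip78C, chinmo and Wnt6 have all their peaks in 1 group, whereas Eip75B and Lar have theirs in 5 groups.

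Peaks of this list came close together. Between 3025 pairs of neighbours on the same arm, the median gap was 12.4 kb (quartiles 1.84 and 59.9). Gaps under 500 bp made up 380 of them (12.6%, 11.4 to 13.8) and gaps under 1 kb 590 (19.5%, 18.1 to 21.0). The longest stretch without a peak was 609 kb on X (chrX:17896238-18505367) and held 56 protein-coding genes. The next, of 584 kb on 2R (chr2R:15091878-15675933), held 59 genes, and that of 554 kb on 3R (chr3R:17021229-17575480) held 73.

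With neighbours at most 5 kb apart joined into groups, 1320 peaks (43.5%) stood alone and 772 (25.5%) stood in 386 pairs. Groups of 3 or 4 held 532 peaks in 158 groups, and groups of 5 or more held 407 peaks (13.4%) in 57 groups. Position relative to genes differed between lone and grouped peaks. Of the lone peaks, 534 of 1320 (40.5%, 37.8 to 43.2) came at most 1 kb from a protein-coding gene's end. In pairs the share was 19.3% (16.6 to 22.3), in groups of 3 or 4 it was 11.7% (9.05 to 14.7), and in groups of 5 or more it was 28 of 407 (6.88%, 4.62 to 9.79). The intervals of lone peaks and of each kind of group do not overlap. Peaks of 1 group share their place and are not independent, so the intervals of the groups are too narrow. Over all 3031 peaks the share at gene ends was 25.5%. The median width differed little, with 118.5 bp for lone peaks, 122.5 bp for pairs, 121 bp in groups of 3 or 4 and 139 bp in groups of 5 or more. The share with the centre in a gene body was 56.1% for lone peaks, 57.0% for pairs, 58.3% in groups of 3 or 4 and 45.9% in groups of 5 or more. The 407 peaks of the last class include 40 at the tip of 3L and 13 at the tip of 2L, where no protein-coding gene is touched.

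**Figure D3:**
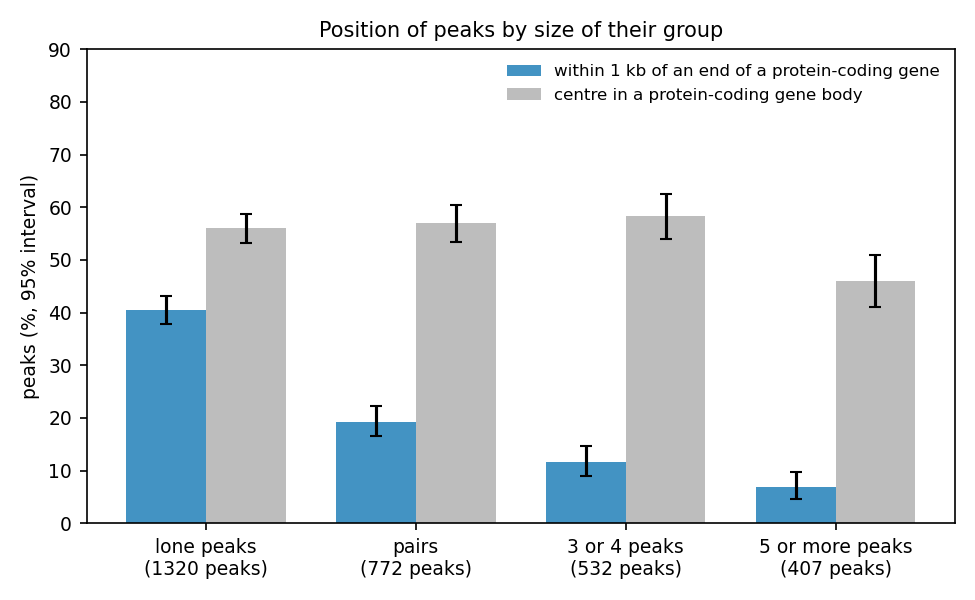
Share of peaks (%, with exact 95% intervals) at most 1 kb away from a protein-coding gene's end (blue) and with the centre in a gene body (grey), by the size of the peak's group. The share at gene ends was 40.5% for lone peaks and lower in every kind of group, down to 6.88% in groups of 5 or more, while the share in bodies was 45.9% to 58.3%. Groups of 5 or more include the tips of 3L and 2L (40 and 13 peaks), which touch no protein-coding gene.

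Groups of 3 or more peaks, called clusters here, numbered 215 and held 939 peaks (31.0%), with a median span of 5.01 kb. Of these, 138 overlapped a protein-coding gene and 77 overlapped none. The largest was the tip of 3L (chr3L:33-19782), where 40 peaks filled 77.9% of the span. The tip of 2L (chr2L:34-5081) had 13 peaks over 80% of its span. Neither touches a protein-coding gene. In the last 20 kb of the other tips there were 7 peaks on 3R, 6 on 2R and 1 on X. For 2R and 3R the 20 kb were counted from the last gene or peak and not from the chromosome end. The 6 peaks on 2R lay at chr2R:25258265-25261512.

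The second cluster, with 16 peaks (chr3R:12467680-12491072), overlaps Hsp70Ba, a heat shock protein gene, and the noncoding lncRNA:alphagamma-element:CR32865. Hsp70 genes and the noncoding element occur there in near-identical copies, so the placing of reads among them is uncertain. The other clusters of the first 10 described here held 8 to 10 peaks. They overlapped Rh5 (chr2L:12003102-12012494), CG42238 (chr2L:21020904-21023895), Ptp10D (chrX:11640195-11648227), and kirre (chrX:2823863-2832311). Clusters of 9 peaks at chr2L:23405721-23414785 and of 8 peaks at chr3R:20156839-20165816 overlapped no protein-coding gene.

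In a cluster picked after its values were seen, at chr3L:27940065-27964399, the peaks were evenly spaced. Its 7 peaks lay at steps of 4106, 4073.5, 4067.5, 4097, 3773 and 4007 bp, of which the largest was 1.09 times the smallest.

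The spans of peak groups recurred at a few lengths. In classes of 50 bp up to 10 kb, the median class held 2 groups, while the fullest held 24. The next held 20, but its spans were under 500 bp and the classes beside it held 17 and 12. It is neither of the lengths described below. Near 9 kb a class of 50 bp held at most 8 groups. In a 500 bp class near 9 kb there were 26 groups with 145 peaks. Their spans ran from 8908 to 9126 bp with a median of 9024 bp (SD 50.5, n = 26 groups), and the 500 bp classes below and above held 4 groups each. They lay on all 5 major arms and had 3 to 9 peaks each. The outer peaks of these groups had a median width of 354 bp (52 peaks), against 103 bp for the inner ones (93 peaks).

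These 9 kb groups met 22 protein-coding genes, and 12 of them were among the 74 with 5 or more peaks: Eip75B, CG34355, Papss, LpR2, KCNQ, ds, alpha-Man-Ia, CenG1A, CG13954, TrissinR, CG31221 and CG31038. All 8 peaks of Papss and all 8 of LpR2 belonged to such a group, as did 4 of the 12 of Eip75B, in a stretch of 8921 bp. KCNQ encodes a potassium channel, ds the atypical cadherin Dachsous, alpha-Man-Ia a mannosidase and TrissinR a peptide receptor.

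A further length recurred in pairs. The fullest 50 bp class had 24 groups, of which 23 were pairs, with a median span of 1369 bp (SD 9.59, n = 24 groups). The classes below and above held 3 and 4. In 19 of the pairs both peaks were 300 bp wide or wider, at 365 to 484 bp, and their centres lay 924.5 to 961 bp apart. Of 386 pairs in the whole list only 23 had both peaks that wide, these 19 among them, whereas 400 of all 3031 peaks (13.2%) were. Of the 19, 11 lay on 2L, 1 on 3L, 4 on 3R and 3 on X. The groups of this length met Rdl, which encodes a GABA receptor, and the cadherin gene CadN, both through pairs among the 19. They also met the nuclear receptor gene ftz-f1, the Polycomb group gene ph-p and 14 further protein-coding genes. The groups at ftz-f1 and ph-p are not among the 19. That at ph-p had 3 peaks of at most 203 bp, and that at ftz-f1 held a peak of 137 bp.

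Together the groups of these 2 lengths numbered 50 and held 194 peaks (6.40%). Families of transposable elements have copies of nearly equal length at many places in the fly genome. The gene table used here lists none, so whether these groups lie on such copies was not tested. Joining neighbours up to 5 kb apart itself limits the spans of pairs to little over 5 kb. The lengths were picked after the spans were seen. Counts below keep the peaks of these groups unless their leaving out is stated. Without these groups ds had 1 peak in place of 7, KCNQ 2 in place of 7 and cpo 3 in place of 5. CadN and beat-IIIc had 1 each in place of 3. For ph-p, with 3 peaks, and Rdl and sima, with 2 each, 0 were left. Members met were fewer in 6 of the gene lists described below and the same in 21.

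**Figure D4:**
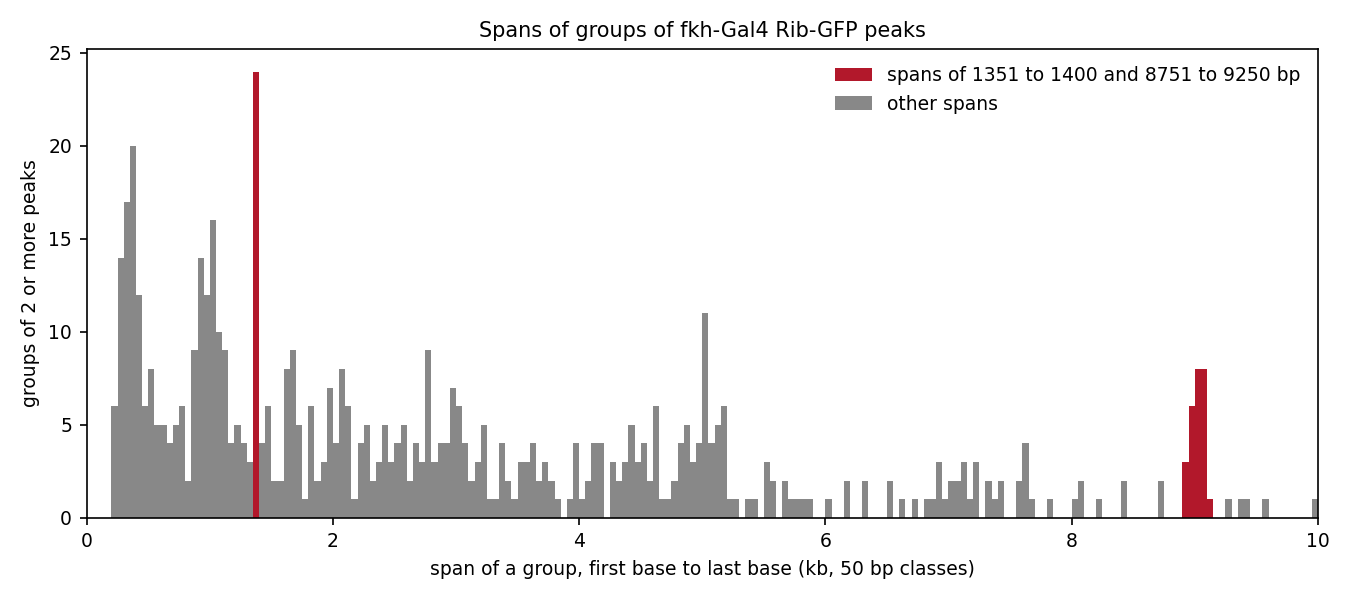
Number of groups of 2 or more peaks (vertical axis) by span in kb, in 50 bp classes up to 10 kb, with the 2 recurring lengths in red. The class with a median of 1369 bp stands highest with 24 groups, and the groups around 9024 bp stand apart from nearly empty classes on both sides.

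The functions of the genes met were described with 27 gene lists, of which 20 had a larger share of members met than all protein-coding genes (10.8%) and 17 had more members met than at the rates of all genes in the same length classes. Lists of unlike gene length are compared with those rates below. All are counts with no test, and a gene may stand in several lists.

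Cytoplasmic ribosomal proteins, which build the ribosome and are encoded by short genes, were met mostly by lone peaks. Of 90 genes 56 were met (62.2%, 51.4 to 72.2), against 4.54 at the rates of their length classes. They met 57 distinct peaks, and no gene had more than 2. RpS21, RpL8 and RpS10b are those with 2. All 57 peaks were at most 1 kb away from the end of a member, a closeness that the short bodies (median 1.31 kb) nearly fix. Of the 57, 48 were lone peaks (84.2%), against 1002 of all 2062 peaks that met a protein-coding gene (48.6%), and none stood in a group of 5 or more. The 2062 include peaks far from gene ends. Of the 773 peaks at most 1 kb from the end of any protein-coding gene, 534 were lone. Genes of mitochondrial ribosomal proteins were met in 8 of 73 cases (11.0%), against 3.31 at the rates of their length classes, and those of the proteasome in 2 of 48, against 2.45. In the body alone 2 of the 73 and 0 of the 48 were met, while all protein-coding genes met fell from 1497 to 1019.

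The BTB zinc-finger and related factors, the family of Rib itself, were met in 12 of 16 cases (75%, 47.6 to 92.7), against 6.35 at their length classes' rates. Their 27 peaks were spread unevenly. The gene chinmo, which encodes a factor of temporal identity in neurons, had 6 peaks of 79 to 181 bp in 1 group of 7324 bp. The limb and ovary patterning genes bab1 and bab2 had 4 and 3 peaks. The gene ken had 3 peaks, lola, which encodes an axon guidance factor, had 2, and ttk, ab, br, psq, Trl and mod(mdg4) had 1 each. The rib gene itself (chr2R:19270078-19281396) had 3 peaks, of 87, 90 and 253 bp, within 4122 bp. In lolal, Cp190, fru and tx none was found. Of these, tx encodes a bHLH factor outside the BTB family, and it is counted among the 16 here and below. Here only 4 of the 27 peaks were that close to the end of a member.

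Chromatin regulators of the Polycomb and trithorax groups, which hold genes silent or active, were met in 15 of 37 cases (40.5%, 24.8 to 57.9), against 6.78 at their length classes' rates. Pc, the chromodomain protein of Polycomb repressive complex PRC1, had 4 peaks, as had jing, and ph-p of the same complex had 3. The remodelling subunit gene mor had 2. The genes Psc, Su(z)2, trx, ash1, kis, Kdm2, Sfmbt, ph-d, psq, Trl and mod(mdg4) had 1 each. The last 3 are also in the BTB list.

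Of the salivary gland genes 15 of 31 were met (48.4%, 30.2 to 66.9), against 7.60 at their length classes' rates, with 28 distinct peaks. Papss had 8, as given above, rib and klar, which encodes a regulator of vesicle transport, had 3 each, and sano and hth had 2 each. The gene fkh had 1 peak, as had CrebA, which encodes the leucine-zipper factor of secretory capacity, crb, 18w, pip, Rok, hry, Sema5c, Sgs8 and PH4alphaSG2. The peak of Rok lies outside its body and overlaps the ribosomal protein gene RpS19a. That of PH4alphaSG2 also counts for the serine protease gene Jon99Fi. In the body alone 11 of the 31 genes were met. No peak met sage, trh, Scr, hkb, eyg or fog. Without the groups of recurring span 14 genes were met and Papss had no peak. Of 26 tracheal genes 8 were met, against 6.07 at their length classes' rates. They included bs, the serum response factor of terminal cells, with 5 peaks, uif with 4 and serp, a chitin deacetylase, with 1. No peak met btl, trh or vvl.

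Receptors and ligands of axon guidance were met in 25 of 47 cases (53.2%), yet these genes are long, and their length classes' rates give 20.6. Lar had 14 peaks, Ptp10D 10, Con 5 and Fas2 4. Genes of cadherins, integrins and the matrix were met in 20 of 42 cases (47.6%), against 14.1. The gene ds had 7 peaks, the heparan sulfate proteoglycan gene dally and CadN had 3 each, and LanA, a laminin chain gene, had 2. Polarity and junction genes were met in 11 of 34 cases, against 9.47, with pyd first at 11 peaks, and cno, baz and Moe with 3 each.

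Genes of the signalling pathways were met as follows. In the Notch pathway 7 of 26 genes were met, against 4.72, with mam, the co-activator gene, at 4 peaks, Ser and fng at 2 and dx at 1. The peak of dx lies within the neighbouring ribosomal protein gene RpL7A. For EGFR, FGF and PVR signalling 13 of 37 genes were met, against 10.8, with aop at 3 and spi, Raf and rl at 2. For the Wnt, Hedgehog and Dpp pathways it was 15 of 50, against 10.8. Wnt6, a Wnt ligand gene, had 6 peaks in 1 group of 7001 bp, shn had 4, and the receptor genes ptc and fz had 3 each. In the body alone the genes met were 5 of 26, 12 of 37 and 11 of 50, in the same order of lists.

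Other transcription factor families were met less, or near their rates. Of 75 homeobox genes 10 were met, against 18.7 at their length classes' rates. Of 46 bHLH genes 9 were met, against 7.14, with crp at 6 peaks, Mitf and Mnt at 4 and sima at 2. Of 69 forkhead, T-box and further factors 16 were met, against 12.8. In the last list grh, which encodes the epithelial factor Grainy head, had 5 peaks, bowl 4, and FoxK and kay 3 each. Of 35 RNA-binding genes 15 were met, against 14.5. The gene heph, which encodes a polypyrimidine tract-binding protein, had 6 peaks in 5 groups, cpo had 5, and fne and brat had 4 each.

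Gene lists of other embryonic cell types were met as follows. Of 26 neural genes 10 were met, against 7.18 at their length classes' rates, with Snap25 at 9 peaks, pros at 8, fne at 4 and sca at 3. Of 28 muscle genes 3 were met, against 7.64, namely kirre with 17 peaks, Tm1 with 2 and Mef2 with 1. Of 20 hemocyte genes 2 were met, against 3.59, namely ush with 3 and Pvr with 1. Of 47 ion channel genes 9 were met, against 16.4, with KCNQ at 7, GluRIB at 3 and Rdl and SK at 2. Of 55 neuronal genes of the immunoglobulin superfamily 16 were met, against 21.3, with DIP-lambda at 19 peaks, dpr2 at 4, and dpr3 and beat-IIIc at 3. A peak near such a gene says nothing of whether it was expressed.

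Several gene families that often lie in tandem were met below their length classes' rates or near them. Cuticle protein genes were met in 2 of 122 cases (1.64%), against 6.33 at their length classes' rates, and Cpr73D had 4 peaks, which it shares with Obp73a. Chemosensory receptor genes were met in 5 of 179 cases (2.79%), against 11.6, and Ir41a, an ionotropic receptor gene, had 5 peaks. Cytochrome P450 genes were met in 4 of 85 cases, against 5.79, with Cyp309a2 at 3 peaks, and trypsin-type serine protease genes in 3 of 45, against 2.86.

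**Figure D5:**
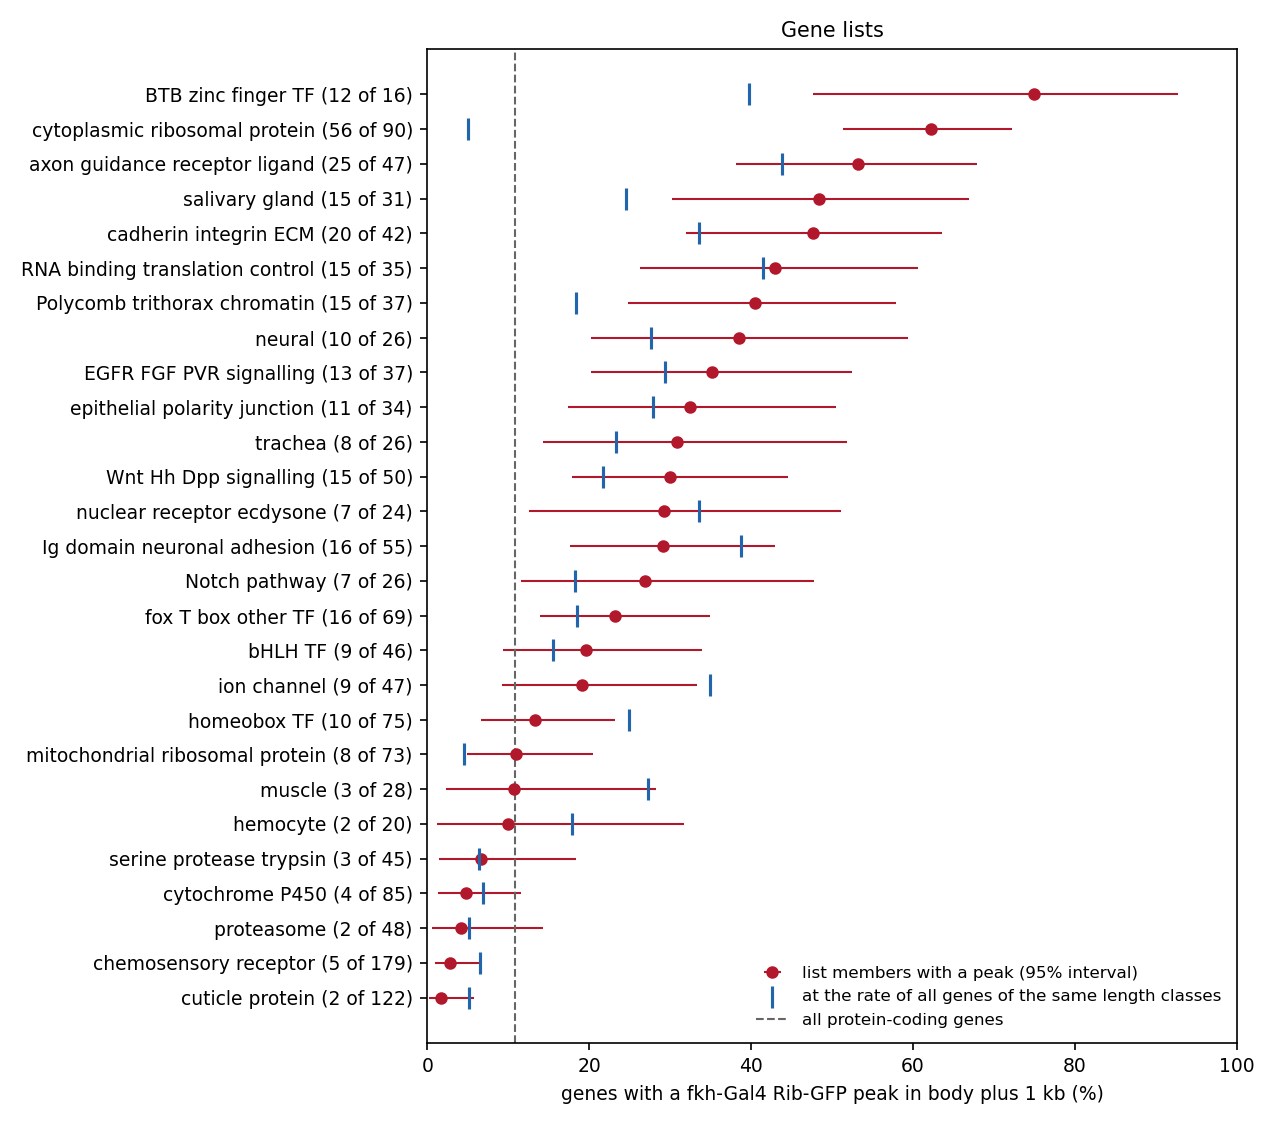
Share of each gene list's members with a peak in body plus 1 kb (points, with exact 95% intervals), beside the share at the rates of all genes of the same length classes and the share of all protein-coding genes, 10.8%. BTB factors (75%) and cytoplasmic ribosomal proteins (62.2%) stand highest, and cuticle proteins (1.64%) lowest.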

How the data were processed

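What the authors deposited and what was read here is 1 list of peak positions, with a chromosome, a start and an end per peak, and no score. Per the submitters' processing notes, BWA, MACS2 2.1.0.20140616 and the build dm6 were used. Not given in the sources used here are the peak threshold, the filters, what was done with multiply mapping reads, and whether the input was a control. Collections were merged before the list was made, per the labels, so there is no replicate and no test.

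Starts were made 1-based. Genes were placed with a RefSeq table of the same assembly (Release 6), which gives no strand and no sequence, so promoters could not be told from 3′ ends and no sequence is printed. Peaks on unplaced scaffolds, the Y and the mitochondrial genome and in the histone and 5S rRNA gene arrays were left out. A peak touching a gene's body plus 1 kb by 1 bp counts for that gene. The rate by length is the share met of all protein-coding genes in each of 8 length classes, summed over the members of a list.

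The members and the gene lists were chosen with earlier results of these data known. A gene list and a cluster are not reported here. Of the listed names, Dl, calypso and nos were not matched. Named genes are the 25 with most peaks, the 10 densest with 3 or more peaks, the 10 longest with none, those in the 10 largest clusters, with 1 cluster left out, and up to 4 per list. Further genes were named after their values were seen. Counting was checked on simulated data. Python 3.11.15, pandas 2.3.3, numpy 2.4.6 and scipy 1.17.1 were used.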

Additional observations from a re-analysis of the deposited data

Results flagged for a closer look

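Of the 4196 fkh-Gal4 peaks, 820 lay on unplaced scaffolds, 127 on the Y chromosome and 4 on the mitochondrial genome, none of which enters a comparison above. A further 214 peaks lay in the left-out arrays, 120 of them over the 111 histone genes of chr2L:21416953-21541681 and 94 over the 100 5S rRNA genes of chr2R:19729562-19766278. The series' inputs are labels only here, and no control was set against these counts.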

How the results depend on the processing

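No paired analysis was possible because there is 1 merged list and no result comes from a test. With only the peaks at or above the median width, 808 genes were met in place of 1497, 24 genes had 5 or more peaks in place of 74, 59 clusters were found in place of 215, and 12% of gaps were under 1 kb in place of 19.5%. With peaks within 500 bp merged, 49 genes had 5 or more and 7.90% of gaps were under 1 kb. With the arrays kept in, that share was 24%. Cluster gaps of 2 kb and 10 kb gave 133 and 323 clusters. A 1 bp overlap in place of the centre put 61.5% of peaks in gene bodies in place of 55.3%. With each group of peaks within 5 kb counted once, 13 genes had 5 or more, and 9.89% of the counted units met the first 25 genes, in place of 11.7%. This setting and the leaving out of the groups of recurring span were chosen after seeing the data. Genes met numbered 1019 in the body alone and 1812 with 2 kb added. Of the 27 lists, 19 to 21 stood above all genes under every setting run. The gene body alone left 52 of 90 ribosomal protein genes, 12 of 16 BTB genes, and 4 of 75 homeobox genes met. With the wider peaks only, 15 of the 27 lists fell by more than 1.5 times in members met, as did all genes met (1497 to 808). Among the 15 were the Polycomb and trithorax (9 of 37), EGFR, FGF and PVR (6 of 37) and polarity genes (4 of 34). Under this setting 8 of 16 BTB and 38 of 90 ribosomal protein genes were met. Of the first 25 genes, 18 remained with the wider peaks, 17 with groups counted once and 22 without the groups of recurring span. The causes were not tested. With the depth unknown, missing peaks are not shown to be absent.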

Other observations

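Among genes that make no protein, those of small nucleolar RNAs, which guide the modification of ribosomal RNA, were met in 39 of 269 cases (14.5%, 10.5 to 19.3), nearly all through the 1 kb beside them, since only 2 had a peak in the body. Many of these genes lie within other genes, so their peaks may count for those too. Pseudogenes were met in 28 of 241 cases (11.6%), snRNA genes in 4 of 32 (12.5%), lncRNA genes in 139 of 1959 (7.10%), tRNA genes in 18 of 290 (6.21%) and miRNA genes in 8 of 260 (3.08%). For protein-coding genes the share was 10.8% over all lengths and 3.40% under 1 kb. The noncoding genes were not set against rates of their own length. The noncoding gene with most peaks was lncRNA:flam, the flamenco locus on X, a source of piRNAs against transposable elements, with 8 peaks.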
